A study of Mus musculus with 7 samples.

Results

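The genes described here are 9 members of the fibroblast growth factor (FGF) pathway, 5 ligands (Fgf2, Fgf4, Fgf5, Fgf8 and Fgf15) and 4 receptors (Fgfr1, Fgfr2, Fgfr3 and Fgfr4). They were chosen by name, and each matched 1 of the 29267 genes in the expression tables. RNA was sequenced in 7 mouse libraries, 1 for each group, so there was no replicate, no test and no standard deviation. The 2 mES and 2 5C libraries came from embryonic fibroblasts of OG2 mice, whose Oct4GFP transgene puts green fluorescent protein under regulatory sequence of Oct4, after retroviral delivery of Oct4, Sox2, Klf4 and c-Myc. They were reprogrammed either in mES medium, which held serum, LIF and vitamin C, or in 5C medium, which held no serum but LIF, vitamin C and FGF2 protein (bFGF), and each culture was sorted into Oct4GFP+ and Oct4GFP- cells. The 5C-Oct4GFP+ (naive) library came from 5C-Oct4GFP+ cells moved to a medium with LIF, vitamin C, the GSK3 inhibitor CHIR99021 and the MEK inhibitor PD0325901. The 5C-Oct4GFP+ (primed) library came from such cells moved to primed medium, which held FGF2 and activin A. The study reports that their green fluorescence was lost in primed medium, so the name gives their origin. R1 ESCs-primed are R1 embryonic stem cells taken to the primed state in that medium on feeder fibroblasts, without the 4 retroviruses, and then kept with CHIR99021 and the Wnt inhibitor IWR-1 in place of both proteins. Whether the converted cells were kept in the same way is not stated. GEO's labels give 20 passages for the naive, primed and R1 ESCs-primed libraries and 0 for the other 4, while the study's descriptions differ on whether the converted cells were sequenced after some days or after those passages. Medium and culture differ together between these libraries, so their parts cannot be told apart, and FGF protein added to a medium is not seen by RNA sequencing.

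FGF ligands are secreted proteins that bind receptor tyrosine kinases of the Fgfr family together with heparan sulfate on the cell surface. An activated receptor signals through the adaptor Frs2, through Ras and Raf, and through MEK to the kinase ERK, which switches on target genes that include its own inhibitors of the Sprouty and Dusp families. In mouse pluripotent cells Fgf4 is the ligand that naive cells make and that drives them toward differentiation, Fgf5 is the classical marker of the primed epiblast, and Fgf8 marks the epiblast as it enters gastrulation. Fgfr1 and Fgfr2 are the receptors best known for reading Fgf4, in epiblast and in primitive endoderm.

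The libraries held between 6108252 and 11496615 estimated reads. Levels are given as TPM, transcript abundance corrected for gene length and brought to a common sum in every library, so that genes can be set against each other. Differences are taken on log2(TPM + 1), on which changes of low genes appear smaller than they are. Intervals are 95% intervals from the number of reads (exact Poisson for a level, Clopper-Pearson for a ratio) and cover counting error only. A gene was counted as higher or lower when log2(TPM + 1) differed by at least 1, which is 2-fold, with at least 1 TPM in either library. The summed TPM of 7 naive markers was between 871 and 1735 in mES-Oct4GFP+, 5C-Oct4GFP+ and the naive conversion and between 7.29 and 75.9 in the other 4 libraries. The sum of 7 primed markers was 1047 in R1 ESCs-primed and 1182 in 5C-Oct4GFP+ (primed), and at most 362 elsewhere. Cer1 alone held 497 TPM in 5C-Oct4GFP+ (primed). Of the primed markers Lef1 was highest in the naive conversion (45.7 TPM), and each of the others in a primed library. Of 10 fibroblast markers, 9 or 10 were at 1 TPM or more in both Oct4GFP- and both primed libraries, where they summed to between 80.4 and 513 TPM, against 3 to 6 markers and sums of 10.9 to 16.6 TPM in the other 3. The 4 primitive endoderm markers summed to between 61.3 and 93.7 TPM in mES-Oct4GFP- and the 2 primed libraries, and to at most 7.66 TPM in the others. Of the fibroblast markers Twist2 was listed at 0 in mES-Oct4GFP+ and the naive conversion. The 6 pluripotency markers summed to 186 and 375 TPM in the Oct4GFP- libraries and to at least 1265 TPM elsewhere. Among them Lin28a was lowest in mES-Oct4GFP+ (24.2 TPM), and each of the others in an Oct4GFP- library. The 4 trophoblast markers summed to 85.4 and 120.2 TPM in the primed libraries and to at most 20.0 TPM elsewhere. In R1 ESCs-primed, Eomes alone held 115 TPM of that sum. The other trophoblast markers peaked elsewhere, Cdx2 in the naive conversion (16.3 TPM), and Elf5 and Gata3 in mES-Oct4GFP- (3.57 and 4.59 TPM). Rescaling the libraries to a common median ratio added between -0.06 and 0.23 to the log2 differences below, with a size over 0.1 in 5 of the 9 comparisons, and calls that it ends are named. In sorted but bulk samples such as these, fewer cells of a type and less RNA per cell cannot be told apart.

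The genes lie on several chromosomes (GENCODE M21 on GRCm38; the labels give mm10). Fgf4 (chr7:144847367-144865243) and Fgf15 (chr7:144896531-144900953) are neighbours on the same strand, 31287 bases apart in this annotation, and a further family member, Fgf3, ends 2930 bases before Fgf4. Fgf5 is at chr5:98254184-98277030, Fgf8 at chr19:45736798-45742915 and Fgf2 at chr3:37348346-37410108. The receptor genes are Fgfr1 at chr8:25513654-25575718, Fgfr2 at chr7:130162451-133123350, Fgfr3 at chr5:33721674-33737068 and Fgfr4 at chr13:55152640-55168759. Exons of Fgf2, Fgf15, Fgfr1 and Fgfr3 overlap genes on the opposite strand. Whether strand was used in counting is not stated, so reads there cannot be assigned with certainty. The overlapping gene of Fgf15 (Gm26793) held at most 1.20 TPM and that of Fgfr1 (Gm16159) at most 2.40 TPM, while Nudt6, which overlaps Fgf2, held between 5.94 and 21.6 TPM. The Fgfr2 model of this annotation shares exons with Ctbp2, which held 93.9 to 369 TPM, so the reads of that stretch cannot be assigned to either gene with certainty.

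Fgf4, highest in 5C-Oct4GFP+, and Fgf5, highest in 5C-Oct4GFP+ (primed), are shown with their promoters, from 250 bases before to 50 bases after the start, as RefSeq gives them for GRCm38.p6 (both on the plus strand, Fgf4 at chr7:144861136-144861435 and Fgf5 at chr5:98253934-98254233). The RefSeq start of Fgf4 lies inside the GENCODE M21 model given above, not at its first base, so the 2 annotations differ on where this gene begins. Capitals mark matches on either strand to 3 motifs of 6 letters. The first is TATAAA, the usual TATA box. A variant of that box, TATATA, can overlap with it or with another copy of itself. The last is GGGCGG, the core of a GC box.
Fgf4: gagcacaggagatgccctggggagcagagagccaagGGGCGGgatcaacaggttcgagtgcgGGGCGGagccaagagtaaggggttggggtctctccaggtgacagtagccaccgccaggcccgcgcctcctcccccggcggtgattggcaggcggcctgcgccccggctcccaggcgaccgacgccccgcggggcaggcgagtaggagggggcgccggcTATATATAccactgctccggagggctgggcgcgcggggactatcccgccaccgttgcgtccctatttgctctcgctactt
Fgf5: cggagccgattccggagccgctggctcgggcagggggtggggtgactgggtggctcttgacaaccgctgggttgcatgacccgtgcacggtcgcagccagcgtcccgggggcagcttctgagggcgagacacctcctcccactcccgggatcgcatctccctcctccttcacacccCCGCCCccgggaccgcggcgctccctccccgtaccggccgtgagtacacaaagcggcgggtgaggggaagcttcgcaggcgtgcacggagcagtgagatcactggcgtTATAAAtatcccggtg
The Fgf4 promoter holds 2 overlapping TATATA matches, whose first bases lie 30 and 28 bases before the start, and 2 GGGCGG matches. That of Fgf5 holds 1 GGGCGG match on the minus strand and 1 TATAAA match, which begins at base 35 after the start. Of 32851 mouse promoters of the same length, 5.67% hold TATATA, 13.6% hold TATAAA and 35.7% hold GGGCGG on either strand. These matches are a description of the sequence. The same table has promoters for 6 of the 9 genes, Fgf2, Fgf4, Fgf5, Fgfr2, Fgfr3 and Fgfr4.

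The ligand that made up most FGF transcripts differed between the libraries high in naive markers and those high in primed markers. Of the summed TPM of 22 FGF ligand-family genes, Fgf4 held 86.3% in mES-Oct4GFP+, 84.8% in the naive conversion and 84.3% in 5C-Oct4GFP+. Its share was 2.69% in R1 ESCs-primed and 1.82% in 5C-Oct4GFP+ (primed), where Fgf5, Fgf8 and Fgf15 together held 88.9% and 91.1%. The Oct4GFP- libraries were mixed, with 19.2% for Fgf4 and 51.5% for these 3 ligands in mES-Oct4GFP-, and 14.4% and 41.3% in 5C-Oct4GFP-. The summed level of the 22 genes was highest in R1 ESCs-primed at 418 TPM and 5C-Oct4GFP+ (primed) at 379.8 TPM, and lowest in 5C-Oct4GFP- at 71.3 TPM.

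**Figure D1:**
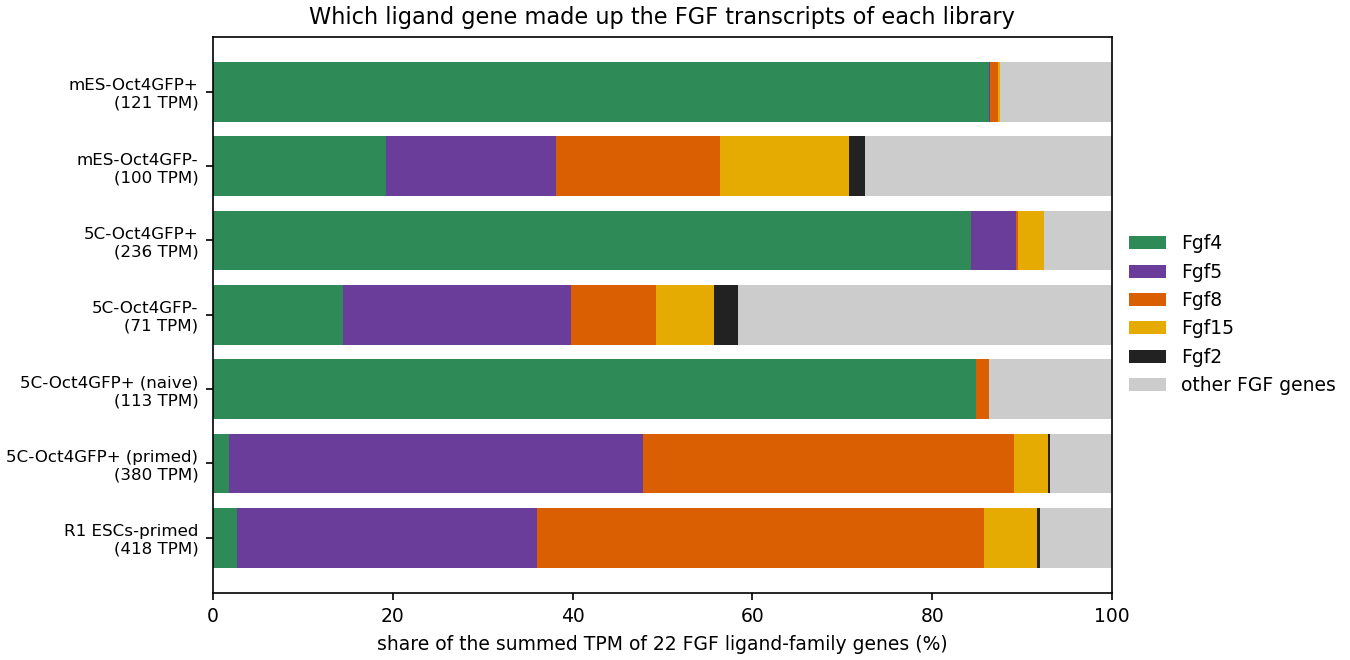
Share of the summed TPM of 22 FGF ligand-family genes (%, horizontal axis) held by each of 5 ligands and by the other 17 genes, in 1 library of each group (vertical axis, with the summed TPM in brackets). Fgf4 fills 84.3% to 86.3% of 3 bars, and Fgf5 and Fgf8 fill most of the 2 bars of primed cells.

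Fgf4, a ligand that naive cells make, was highest in 5C-Oct4GFP+ at 199 TPM. It stood at 104 for mES-Oct4GFP+, 95.7 for 5C-Oct4GFP+ (naive), 19.3 for mES-Oct4GFP-, 11.3 for R1 ESCs-primed, 10.3 for 5C-Oct4GFP- and 6.93 for 5C-Oct4GFP+ (primed). The levels of 5C-Oct4GFP+, mES-Oct4GFP+ and 5C-Oct4GFP+ (naive) lay above all others, and each of the 7 values rested on at least 128 reads. The level of 5C-Oct4GFP+ was 1.91-fold (1.78 to 2.05) that of mES-Oct4GFP+ and 28.7-fold (24.1 to 34.5) that of 5C-Oct4GFP+ (primed). In the order of the 7 levels, the ratio of neighbours held 1 within its counting interval only for R1 ESCs-primed and 5C-Oct4GFP- (1.09, 0.849 to 1.40). The interval for mES-Oct4GFP+ and 5C-Oct4GFP+ (naive) came close, at 1.09 (1.00 to 1.18), and rescaling the libraries to a common median ratio turned that difference from -0.12 to 0.05 on the log2 scale.

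Fgf5, the marker of primed epiblast, stood at 175 TPM for 5C-Oct4GFP+ (primed), 139 for R1 ESCs-primed, 19.0 for mES-Oct4GFP-, 18.1 for 5C-Oct4GFP-, 11.7 for 5C-Oct4GFP+, 0.12 for mES-Oct4GFP+ and 0.09 for 5C-Oct4GFP+ (naive). Its levels fell into 3 tiers, with 1 read each in mES-Oct4GFP+ and 5C-Oct4GFP+ (naive), a middle tier of 3 libraries, and the primed libraries on top. The middle tier joined 5C-Oct4GFP+ to both Oct4GFP- libraries, and mES-Oct4GFP- and 5C-Oct4GFP- could not be ordered within counting error (ratio 1.05, 0.857 to 1.29). In 5C-Oct4GFP+, 162 reads of Fgf5 stood beside 3356 of Fgf4, and the TPM of Fgf4 was 17.0 times (14.5 to 20.0) that of Fgf5. That ratio was 1.01 (0.840 to 1.23) in mES-Oct4GFP- and 0.0397 (0.0330 to 0.0474) in 5C-Oct4GFP+ (primed). In mES-Oct4GFP+ it was 868, with an interval from 155 upward that reaches 34297 because it rests on 1 read of Fgf5.

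Fgf8, a ligand of the gastrulating embryo, stood at 208 TPM for R1 ESCs-primed, 157 for 5C-Oct4GFP+ (primed), 18.3 for mES-Oct4GFP-, 6.74 for 5C-Oct4GFP-, 1.52 for 5C-Oct4GFP+ (naive), 1.08 for mES-Oct4GFP+ and 0.63 for 5C-Oct4GFP+. Unlike Fgf5, it had only 2 reads in 5C-Oct4GFP+, as in mES-Oct4GFP+, and 4 in the naive library, and these 3 could not be ordered. The lower of the primed libraries was 8.59-fold (6.74 to 11.1) above the next, mES-Oct4GFP-.

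Fgf15, the mouse counterpart of human FGF19 and a hormone-like ligand that is also made in the early embryo, stood at 24.3 TPM for R1 ESCs-primed, 14.4 for mES-Oct4GFP-, 14.3 for 5C-Oct4GFP+ (primed), 6.75 for 5C-Oct4GFP+, 4.54 for 5C-Oct4GFP- and 0.35 for mES-Oct4GFP+, with no read for 5C-Oct4GFP+ (naive). For the naive library, the floor of 3 reads would be 0.366 TPM, and the counting interval of 0 reads reached 0.450 TPM. Like Fgf5 it was near the floor in mES-Oct4GFP+ and 5C-Oct4GFP+ (naive), but the rest spanned a narrower range. The levels in mES-Oct4GFP- and 5C-Oct4GFP+ (primed) could not be told apart (ratio 1.01, 0.788 to 1.30), nor those in 5C-Oct4GFP+ and 5C-Oct4GFP- (1.49, 0.962 to 2.30).

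Fgf2, whose protein is the bFGF of the 5C medium, was barely transcribed. Its level stood at 1.89 TPM for 5C-Oct4GFP-, 1.83 for mES-Oct4GFP-, 1.78 for R1 ESCs-primed and 0.70 for 5C-Oct4GFP+ (primed), from 2 to 6.32 estimated reads, and no read was assigned in the other 3 libraries. The 4 libraries with reads were those with 9 or 10 fibroblast markers at 1 TPM or more, and the part of such cells in the result was not tested. At this depth none of these levels could be ordered, since 3 reads would give between 0.869 and 2.84 TPM.

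**Figure D2:**
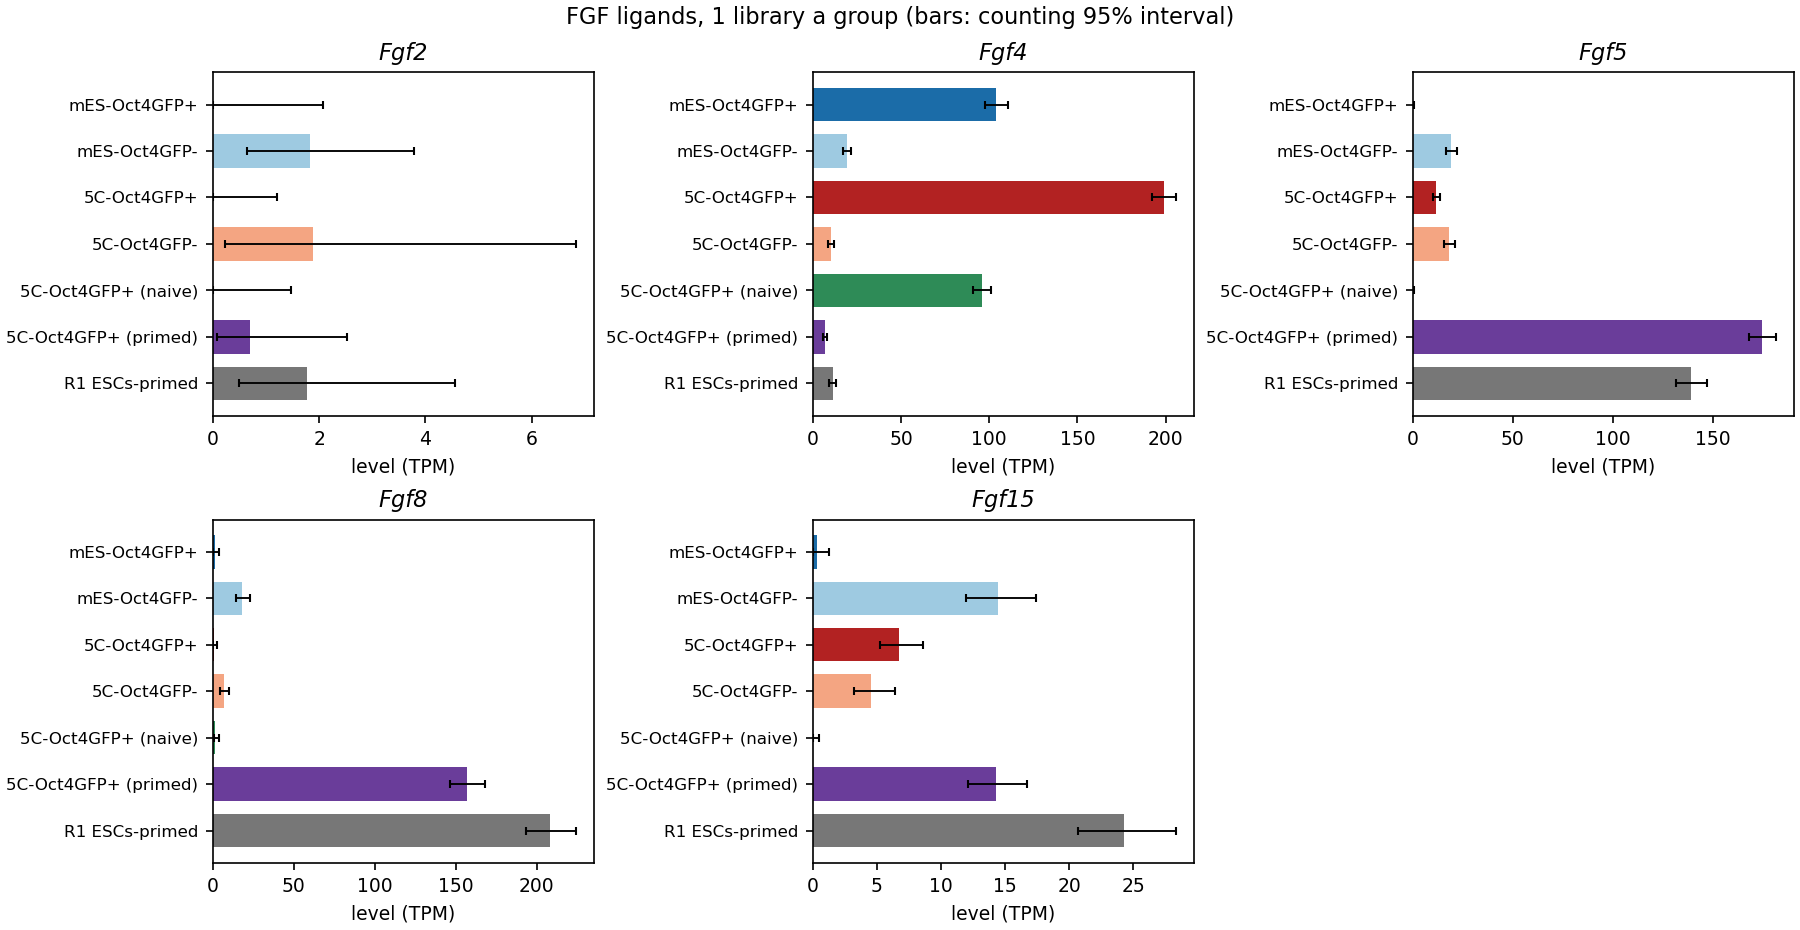
Levels of the 5 ligands (TPM, horizontal axes that differ in range between panels) in the 7 libraries (vertical axes), with bars for the level and whiskers for the 95% counting interval. Fgf4 is highest in 5C-Oct4GFP+ at 199 TPM, while Fgf5 and Fgf8 are highest in the 2 primed libraries.

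Fgfr1 was the main receptor in every library. It stood at 149 TPM for 5C-Oct4GFP-, 132 for R1 ESCs-primed, 112 for mES-Oct4GFP-, 101 for 5C-Oct4GFP+ (primed), 72.0 for 5C-Oct4GFP+ (naive), 60.4 for 5C-Oct4GFP+ and 54.6 for mES-Oct4GFP+, and so ranged over less than 3-fold. It held between 73.7% of the summed TPM of the 4 receptors, in 5C-Oct4GFP-, and 97.2%, in 5C-Oct4GFP+ (naive). The 3 libraries where Fgf4 was highest were the 3 lowest for Fgfr1. In TPM the order of all 7 was outside counting error, though by as little as 1.10-fold (1.00 to 1.22) at its lower end. That order depends on the scaling. The ratio of mES-Oct4GFP- to 5C-Oct4GFP+ (primed) was 1.11 (1.05 to 1.19), and their median-ratio factors, 1.11 and 1.01, were about as far apart.

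Fgfr2, a receptor also used by primitive endoderm and epithelia, stood at 19.4 TPM for mES-Oct4GFP-, 12.5 for 5C-Oct4GFP-, 9.90 for 5C-Oct4GFP+ (primed), 9.36 for R1 ESCs-primed, 7.73 for 5C-Oct4GFP+, 5.03 for mES-Oct4GFP+ and 1.75 for 5C-Oct4GFP+ (naive). It was the second receptor in 6 libraries, highest in mES-Oct4GFP- and lowest in the naive library, while the levels of 5C-Oct4GFP-, the 2 primed libraries and the 5C-Oct4GFP+ cells each overlapped the next within counting error. The highest value came in a library whose 4 primitive endoderm markers summed to 63.9 TPM and were all at 1 TPM or more, and the part of such cells was not tested. Those markers summed to 93.7 TPM in 5C-Oct4GFP+ (primed), where Sox17 alone held 60.4 TPM, and to 7.66 TPM in 5C-Oct4GFP-. The ratio of Fgfr2 in 5C-Oct4GFP- to 5C-Oct4GFP+ (primed) was 1.26 (0.985 to 1.60), within counting error. How Fgfr2 goes with these markers was not tested.

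Fgfr3 stood at 38.3 TPM for 5C-Oct4GFP-, 7.06 for mES-Oct4GFP-, 2.93 for 5C-Oct4GFP+, 1.13 for R1 ESCs-primed, 1.08 for 5C-Oct4GFP+ (primed), 0.90 for mES-Oct4GFP+ and 0.07 for 5C-Oct4GFP+ (naive). This receptor, best known as a brake on bone growth, stood out in 5C-Oct4GFP-, where it was 5.42-fold (4.44 to 6.66) above the next library and took the place of Fgfr2 as the second receptor. The naive library held 1 read. Fgfr4, the receptor used by Fgf15 in liver, was low throughout, between 0.26 TPM in 5C-Oct4GFP+ (naive) and 2.52 TPM in 5C-Oct4GFP-. No neighbours in its order differed beyond counting error.

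**Figure D3:**
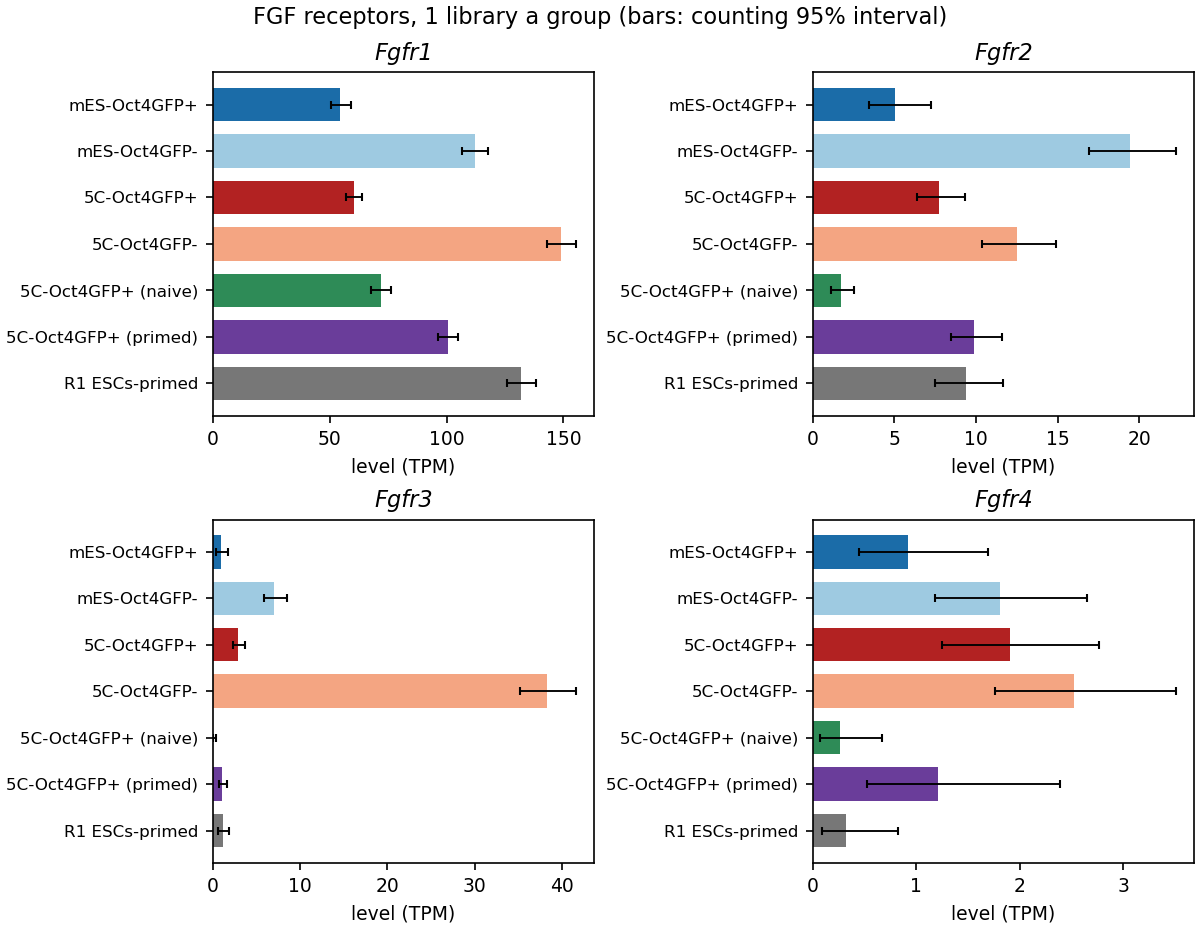
Levels of the 4 receptors (TPM, horizontal axes that differ in range between panels) in the 7 libraries (vertical axes), with bars for the level and whiskers for the 95% counting interval. Fgfr1 lies between 54.6 and 149 TPM in all libraries, and Fgfr3 is highest in 5C-Oct4GFP- at 38.3 TPM.

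The first comparison of the design set cells that had switched on Oct4GFP in 5C medium against those in mES medium. Of the 8 genes with at least 1 TPM in either library, 3 had a higher level in 5C-Oct4GFP+ (Fgf5, Fgf15 and Fgfr3) and none a lower level than in mES-Oct4GFP+, beside 13.7% of all 15196 genes higher and 13.5% lower. Fgf5 differed by 3.50 on the log2 scale, a ratio of 97.4 (17.2 to 3871) that rests on 1 read in mES-Oct4GFP+. Fgf15 differed by 2.52, a ratio of 19.3 (5.14 to 163) from 2 reads in mES-Oct4GFP+, and Fgfr3 by 1.05, a ratio of 3.26 (1.56 to 7.85), which did not pass with the authors' FPKM in place of TPM. Fgf4 came just under the threshold with 0.93, and Fgfr1 differed by 0.14. The median over the 8 genes was 0.76, and over all genes -0.06.

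Among cells without Oct4GFP, the 5C library had 1 gene higher and 2 genes lower relative to the mES library, beside 9.68% and 10.1% of all genes. Fgfr3 was the higher one, by 2.28, while Fgf8 was lower by a ratio of 2.71 (1.73 to 4.36) and Fgf15 by 3.18 (2.13 to 4.79). Fgf5, which differed most between the Oct4GFP+ libraries, was at 18.1 and 19.0 TPM here. The 10 fibroblast markers summed to 513 TPM in the mES and 264 TPM in the 5C fraction, and their part in these differences was not tested. Over the 9 genes the median difference was -0.07, and over all genes 0.03.

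Between the sorted fractions of 1 culture, Fgf4 was higher and Fgf8 and Fgfr3 were lower in the Oct4GFP+ cells of both media under all settings. Fgfr1 and Fgf2 were also counted as lower in both media. The call of Fgfr1 in mES medium and those of Fgf2 in both media were lost under some settings, and Fgf2 rested on few reads. In mES medium Fgf4 alone was higher in Oct4GFP+ cells, by 5.39-fold (4.69 to 6.21), and 7 of 9 genes were lower (Fgf2, Fgf5, Fgf8, Fgf15, Fgfr1, Fgfr2 and Fgfr3), beside 17.9% of all genes higher and 28.8% lower. Fgf5 was 159-fold (28.2 to 6297) higher in mES-Oct4GFP- from 1 read in mES-Oct4GFP+, Fgf15 was 41.3-fold (11.2 to 346) higher, and Fgfr1 was 2.05-fold (1.87 to 2.25) higher and just past the threshold, at -1.02. With median-ratio rescaling, FPKM (reads per length and library total) or CPM (counts scaled to a library's total) Fgfr1 no longer passed. Fgf2 was under the minimum with FPKM, CPM or a minimum of 5 TPM, so that 5 genes were lower with FPKM and with CPM. The median difference was -1.76 over the 9 genes and -0.15 over all genes.

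In 5C medium Fgf4 was 19.3-fold (16.2 to 23.2) higher in Oct4GFP+ cells and 4 of 9 genes were lower (Fgf2, Fgf8, Fgfr1 and Fgfr3), beside 8.45% and 22.6% of all genes. Fgfr3 was 13.1-fold (10.1 to 17.1) and Fgfr1 2.47-fold (2.30 to 2.65) higher in 5C-Oct4GFP- cells. Fgf5 and Fgf15, lower in Oct4GFP+ cells of the mES culture, differed here by -0.59 and 0.48 and passed in neither direction. Fgf2, with no read in either Oct4GFP+ library, passed from 6.32 estimated reads in mES-Oct4GFP- and 2 in 5C-Oct4GFP-, and both counting intervals of the ratio held 1. In 5C medium it was under the minimum with FPKM, CPM or 5 TPM, which left 3 genes lower. In both cultures the fibroblast markers summed to more in the Oct4GFP- cells (513 against 15.3 TPM, and 264 against 10.9 TPM). Their part was not tested. The median difference was -0.63 over the 9 genes, -0.59 with Fgf2 at the floor, and -0.25 over all genes.

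In the naive conversion most members were lower than in the cells it began from, while the main receptor was not. Against 5C-Oct4GFP+ cells none of 8 genes was higher in 5C-Oct4GFP+ (naive) and 6 were lower (Fgf4, Fgf5, Fgf15, Fgfr2, Fgfr3 and Fgfr4), beside 10.0% of all genes higher and 17.5% lower. Fgf5 was 129.9-fold (23.0 to 5162) higher in 5C-Oct4GFP+, Fgf15 at least 18.4-fold higher against the floor of 3 reads with a counting interval from 14.6 upward, Fgfr2 4.42-fold (2.89 to 7.13) and Fgfr4 7.31-fold (2.55 to 28.7). Fgf4 was at the threshold with -1.05, a ratio of 2.08 (1.95 to 2.21), and did not pass with median-ratio rescaling, FPKM or CPM, and Fgfr4 did not pass with FPKM. Fgfr1 differed by 0.25. Over the 8 genes the median was -1.43, and over all genes -0.10.

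In the primed conversion the leading ligands were different ones. In 5C-Oct4GFP+ (primed), Fgf5 was 14.9-fold (12.7 to 17.6) and Fgf8 249-fold (68.7 to 2060) higher than in 5C-Oct4GFP+ cells, the latter from 2 reads, and Fgf4 was the only one of 8 genes lower, beside 13.7% of all genes higher and 16.1% lower. Fgf15 was just under the threshold with 0.98, a ratio of 2.12 (1.58 to 2.86). The receptors passed in neither direction, with differences of 0.73 for Fgfr1, 0.32 for Fgfr2, -0.92 for Fgfr3 and -0.39 for Fgfr4. Fgfr3, with a ratio of 2.71 (1.71 to 4.42) in favour of 5C-Oct4GFP+, passed as lower with a pseudocount of 0.1 (-1.36) and with CPM (-1.13), and Fgfr4 passed as lower with CPM (-1.08). The fibroblast markers summed to 80.4 TPM in the primed library and 10.9 TPM in 5C-Oct4GFP+, and their part was not tested. The median difference was 0.52 over the 8 genes and 0.06 over all genes.

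The converted libraries were then set beside their counterparts. None of 9 genes passed 2-fold between 5C-Oct4GFP+ (primed) and R1 ESCs-primed, beside 2.30% of all genes higher and 5.09% lower, so the members' count is near that background. Differences larger than counting error remained below the threshold, among them Fgf5, 1.25-fold (1.17 to 1.34) higher in the reprogrammed cells. In TPM, Fgfr4 was also higher there, 3.78-fold (1.01 to 17.2) from 8 against 4 reads. Its TPM was calculated with an effective length of 1055 bases for the reprogrammed cells, against 3251 for R1 ESCs-primed. By CPM, which leaves length out, Fgfr4 stood at 0.70 (0.30 to 1.37) against 0.56 (0.15 to 1.42). These intervals overlapped, so the higher level of Fgfr4 holds for TPM only. Higher in R1 ESCs-primed were Fgf15 by 1.70-fold (1.35 to 2.13), Fgf4 by 1.62-fold (1.26 to 2.09), Fgf8 by 1.33-fold (1.20 to 1.47) and Fgfr1 by 1.31-fold (1.23 to 1.40). Of the 10 fibroblast markers 8 were lower in 5C-Oct4GFP+ (primed), where the list summed to 80.4 TPM against 225 TPM, and their part was not tested. The order of the leading ligands was not the same either, since Fgf5 led Fgf8 in 5C-Oct4GFP+ (primed) by 1.11-fold (1.03 to 1.20) and Fgf8 led Fgf5 in R1 ESCs-primed by 1.50-fold (1.36 to 1.64). Medians were -0.39 over the 9 genes and -0.03 over all genes.

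Between 5C-Oct4GFP+ (naive) and mES-Oct4GFP+ only 4 of 9 genes reached 1 TPM in either library. Fgfr2 was the 1 gene that passed, 2.87-fold (1.69 to 5.17) higher in mES-Oct4GFP+, and none was higher in the naive library, beside 2.49% of all genes higher and 6.27% lower. With median-ratio rescaling 523 genes were higher and 709 lower, in place of 361 and 908. Fgfr2 did not pass with FPKM or CPM. Its TPM was calculated with an effective length of 1822 bases for mES-Oct4GFP+, against 3172 for the naive library. By CPM, Fgfr2 stood at 5.00 (3.45 to 7.20) in mES-Oct4GFP+ and 3.19 (2.06 to 4.63) in the naive library. These intervals overlapped, so the call of Fgfr2 holds for TPM only. Fgfr1 differed by 0.39. The median difference was 0.08 over the 4 genes and -0.16 over all genes.

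Between the 2 converted libraries, 1 of 8 genes was higher in 5C-Oct4GFP+ (naive) and 4 were lower, beside 16.7% and 22.2% of all genes. Fgf4 was 13.8-fold (11.5 to 16.7) higher in the naive library, while Fgf5 was 1941-fold (348 to 76684, from 1 read), Fgf8 103-fold (40.2 to 379.8), Fgf15 at least 39.0-fold against the floor of 3 reads (counting interval from 31.4 upward) and Fgfr2 5.66-fold (3.77 to 9.04) higher in the primed library. Fgfr1 was 1.40-fold (1.30 to 1.50) higher there and did not pass. The fibroblast markers summed to 16.6 TPM in the naive and 80.4 TPM in the primed library, and their part was not tested. The median difference was -1.47 over the 8 genes and -0.14 over all genes. These 9 comparisons share libraries, so the same value enters several of them.

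**Figure D4:**
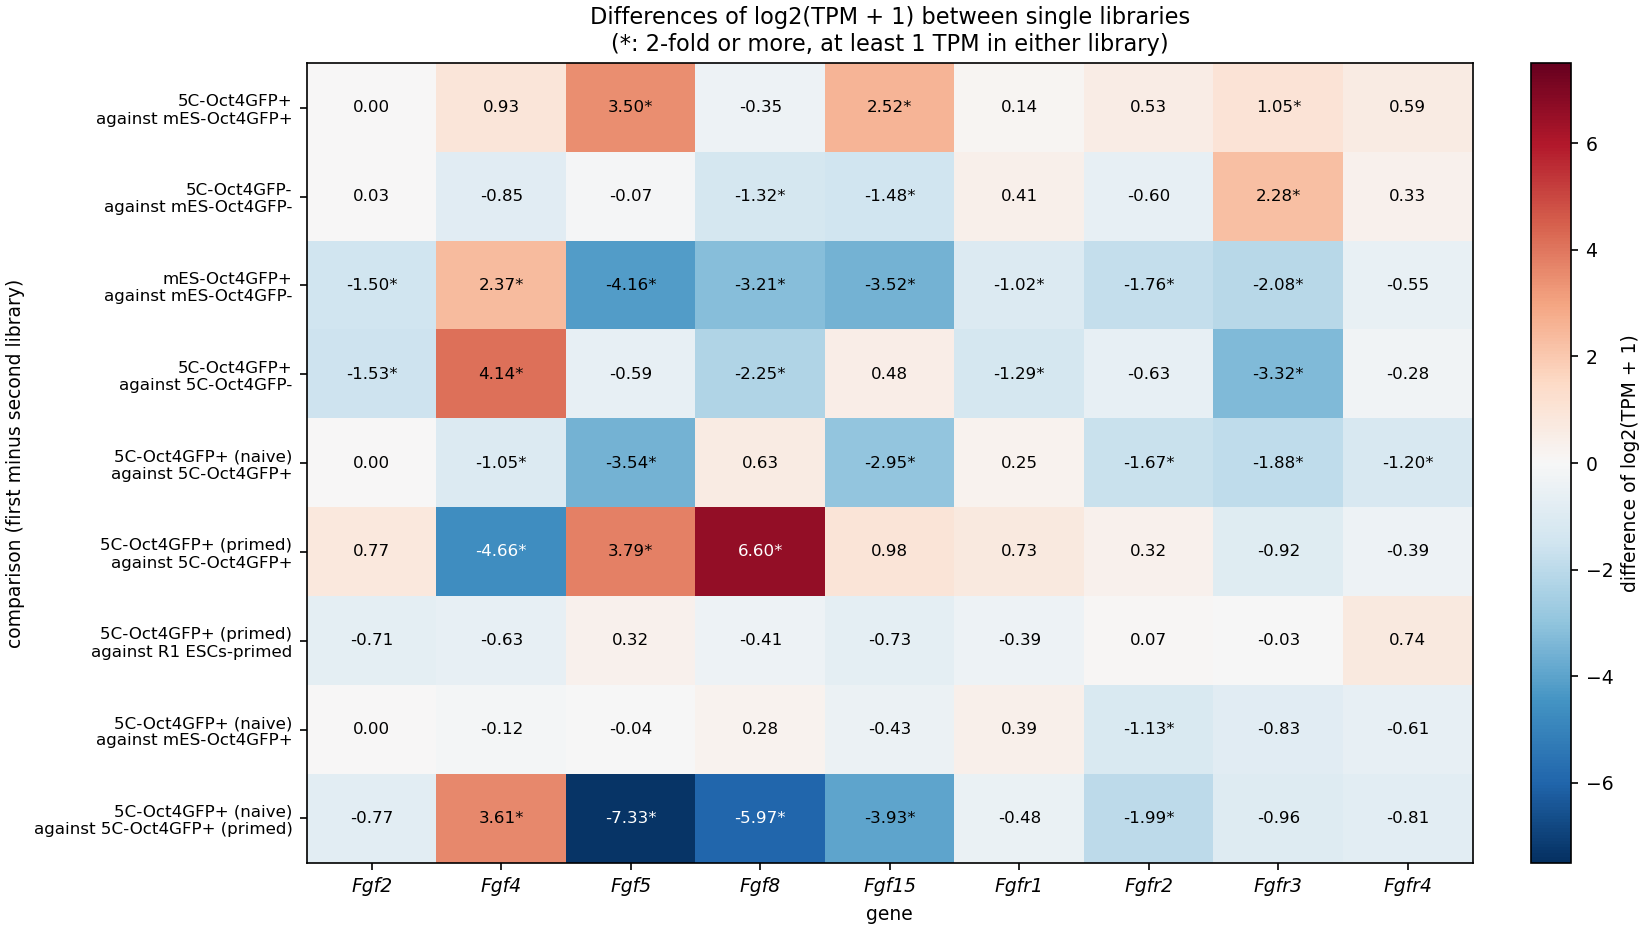
Differences of log2(TPM + 1) for the 9 genes (horizontal axis) in 9 comparisons of single libraries (vertical axis, first minus second library), written in each cell and coloured from blue (lower) to red (higher), with an asterisk where 2-fold and 1 TPM were reached. Fgf4 is red where Fgf5 and Fgf8 are blue in the last row, with 3.61 against -7.33 and -5.97.

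The genes whose pattern was nearest to each member were found by Pearson's r of log2(TPM + 1) over the 7 libraries among 13492 genes of at least 5 TPM in at least 1 library, as a description over points that share media and depth. For Fgf4 they were Zfp710 (r = 0.99), Gm14406 (0.99) and Akap12 (0.98), all 3 highest in 5C-Oct4GFP+. For Fgf5 they were Lin28b (0.99), which encodes an RNA-binding protein that blocks let-7 maturation, Igsf1 (0.99) and the gap junction gene Gja1 (0.99), all lowest in the naive library. Fgf8 was nearest to Ube2v1 (1.00), the mechanosensitive channel gene Piezo2 (0.99) and the transporter gene Abcg2 (0.99), each highest in R1 ESCs-primed, as were Gbp2, Faap20 and Slc26a10 (0.99 each), the nearest to Fgf15. Fgfr2 was nearest to Shroom4, Ralgapb and Sri (0.99 each), highest in mES-Oct4GFP-, and Fgfr3 to Jcad, Map3k14 and Zfp30 (0.99 each), highest in 5C-Oct4GFP-. Among the members themselves, over the same 7 libraries, r was -0.77 for Fgf4 with Fgf5, -0.86 for Fgf4 with Fgf8, -0.89 for Fgf4 with Fgfr1, 0.94 for Fgf5 with Fgf15 and 0.88 for Fgf5 with Fgf8.

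The other FGF genes held between 6.93% of the summed ligand-family TPM, in 5C-Oct4GFP+ (primed), and 41.6%, in 5C-Oct4GFP-. Their share was 27.4% in mES-Oct4GFP- and at most 13.7% in the remaining libraries. Of 17 further family members, 7 reached 5 TPM in at least 1 library, 5 stayed under 1 TPM in all, and 1 of those had no read at all. Fgf3, the neighbour of Fgf4, was highest where Fgf4 was high in mES-Oct4GFP+ (7.10 TPM) and 5C-Oct4GFP+ (naive) (5.52 TPM), but had 1.31 TPM in 5C-Oct4GFP+, the library with most Fgf4. Fgf1 (8.87 TPM) and Fgf18 (6.01 TPM) peaked in 5C-Oct4GFP-, Fgf10 (5.10 TPM) and Fgf11 (5.10 TPM) in mES-Oct4GFP-, Fgf17 (5.10 TPM) in 5C-Oct4GFP+ and Fgf13, which encodes an intracellular protein of the family, in R1 ESCs-primed (7.52 TPM). In 5C-Oct4GFP- Fgf1 was thus the third ligand, after Fgf5 at 18.1 and Fgf4 at 10.3 TPM.

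Partners of ligand and receptor were mostly highest in the Oct4GFP- libraries, and the share of all genes highest there was not determined. Exceptions were Klb and Flrt1 among co-receptors and carriers, and Hs6st2, Sdc3, Sdc4, Gpc4 and Sulf1 among heparan sulfate genes. Fgfbp1, a carrier that frees FGF2 from the matrix, stood at 276 TPM for mES-Oct4GFP-, 224 for 5C-Oct4GFP-, 112 for 5C-Oct4GFP+, 33.0 for 5C-Oct4GFP+ (primed), 24.5 for 5C-Oct4GFP+ (naive), 9.38 for R1 ESCs-primed and 5.84 for mES-Oct4GFP+. It was the most variable of 8 co-receptors and carriers, followed by the adhesion protein gene Flrt2, which ranged from 1.74 TPM in 5C-Oct4GFP+ (primed) to 46.9 TPM in mES-Oct4GFP-. A list of 20 heparan sulfate genes covered its synthesis, its core proteins and the sulfatases Sulf1 and Sulf2. Of these, 14 were lower and none was higher in mES-Oct4GFP+ than in mES-Oct4GFP-, beside 28.8% of all genes lower and 17.9% higher. Of the same 20, 13 were lower and 2 higher in 5C-Oct4GFP+ than in 5C-Oct4GFP-, beside 22.6% and 8.45%. In both comparisons the fibroblast markers summed to less in the Oct4GFP+ cells, as given above, and their part was not tested. The most variable of the list were Hs6st2, a sulfotransferase gene, from 0.05 TPM in 5C-Oct4GFP+ (naive) to 23.4 TPM in R1 ESCs-primed, and the glypican gene Gpc6, from 0.42 TPM in the same naive library to 23.6 TPM in mES-Oct4GFP-.

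The adaptors and the kinases between receptor and ERK passed in numbers near those of all genes where they differed most. All 20 genes of that list reached 5 TPM in at least 1 library. The comparison with most calls set the naive against the primed library, where 3 of the 20 were higher and 5 lower, beside 16.7% and 22.2% of all genes. Between the 2 primed libraries, where no member passed, Gab1 and Sos2 were lower in 5C-Oct4GFP+ (primed). Their widest ranges were those of Sos2, a Ras exchange factor, from 21.6 TPM in 5C-Oct4GFP+ (primed) to 338 TPM in 5C-Oct4GFP+ (naive), and of Mapk3, which encodes ERK1, with 307 TPM for mES-Oct4GFP-, 221 for 5C-Oct4GFP-, 151 for 5C-Oct4GFP+ (primed), 123 for R1 ESCs-primed, 86.5 for 5C-Oct4GFP+, 34.4 for mES-Oct4GFP+ and 30.1 for 5C-Oct4GFP+ (naive).

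Of the 12 feedback and target genes of ERK, 9 were lower in both mES-Oct4GFP+ and 5C-Oct4GFP+ (naive) than in any of the other 5 libraries, as were 22.7% of 13492 genes of at least 5 TPM in at least 1 library. The other 3 were Spry2 and Il17rd, lowest in mES-Oct4GFP- at 35.6 and 9.82 TPM, and Etv5, lowest in 5C-Oct4GFP+ (primed) at 128 TPM. Egr1, an immediate early gene, stood at 568 TPM for 5C-Oct4GFP-, 500.1 for mES-Oct4GFP-, 253 for 5C-Oct4GFP+, 83.8 for 5C-Oct4GFP+ (primed), 64.9 for R1 ESCs-primed, 0.50 for 5C-Oct4GFP+ (naive) and 0.32 for mES-Oct4GFP+. Spry4, which encodes a Sprouty inhibitor, stood at 84.4, 26.6, 22.5, 11.8, 21.0, 1.92 and 0.40 TPM in the same order of libraries. Dusp4 and Dusp6, phosphatase genes chosen after their values were seen, had 0.23 and 3.53 TPM in mES-Oct4GFP+ and 0.24 and 7.0 TPM in the naive library, against at least 37.8 and 34.7 TPM elsewhere. These 4 genes were lowest in the 2 libraries with at most 2 reads of Fgf5 and of Fgf15. The same libraries held 104 (mES-Oct4GFP+) and 95.7 TPM (naive) of Fgf4. How the ligands go with these 4 genes was not tested. Against mES-Oct4GFP+, 8 of 12 genes were higher in 5C-Oct4GFP+ and none was lower, beside 13.7% and 13.5% of all genes, with a median difference of 1.36 beside -0.06 for all genes. Against 5C-Oct4GFP+, 7 of 12 were lower in the naive library and none was higher, beside 17.5% and 10.0%, with a median of -1.04 beside -0.10. Of the same 12 genes, 10 were lower in the naive than in the primed library, beside 22.2% of all genes, with a median of -1.75 beside -0.14. In mES-Oct4GFP+ 7 were lower and 1 (Spry2) higher than in mES-Oct4GFP-, beside 28.8% and 17.9%, with a median of -1.42 beside -0.15. In 5C-Oct4GFP+ 4 were lower than in 5C-Oct4GFP-, beside 22.6%, with a median of -0.55 beside -0.25. Among Oct4GFP- cells 6 were higher in 5C medium, beside 9.68%, with a median of 0.93 beside 0.03. In 5C-Oct4GFP+ (primed) 1 was higher and 2 were lower than in 5C-Oct4GFP+, beside 13.7% and 16.1%. None passed between the 2 primed libraries, and 1 of the 10 that reached 1 TPM, Spry4, was higher in the naive library than in mES-Oct4GFP+. By the media listed above, the naive medium held a MEK inhibitor and the mES medium held none. The files hold nothing that checks which medium a library's cells were in, so each comparison with mES-Oct4GFP+ rests on its label.

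**Figure D5:**
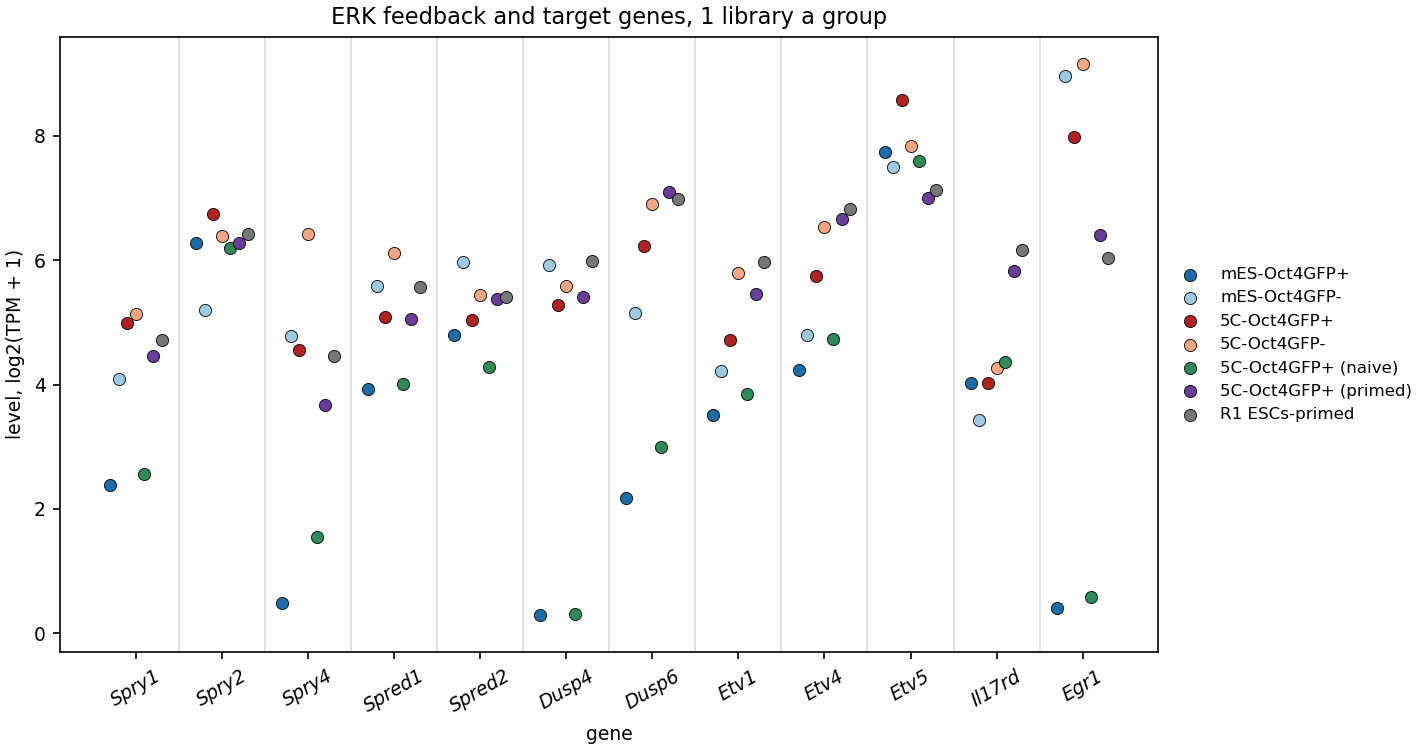
Levels of 12 ERK feedback and target genes (log2(TPM + 1), vertical axis; genes on the horizontal axis), with 1 point for each of the 7 libraries. For Egr1, Spry4 and Dusp4 the points of mES-Oct4GFP+ and 5C-Oct4GFP+ (naive) lie below all others, as with 0.32 and 0.50 TPM of Egr1.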

How the data were processed

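The authors prepared TruSeq libraries, sequenced them on an Illumina MiSeq and estimated expression with RSEM. The submitters' processing notes name Bowtie, RSEM and mm10, and versions, annotation release and use of strand are not given in the sources used here. The deposited expected counts are the authors' RSEM estimates of reads per gene, are not normalized, and were rounded to whole reads for the intervals. TPM and FPKM were calculated by the authors from these counts and isoform-weighted effective lengths, so a gene with few reads can gain TPM when RSEM assigns a short isoform. TPM was the main value, with a pseudocount of 1, a minimum of 1 TPM in either library and a threshold of 2-fold. Ensembl identifiers linked genes to GENCODE M21, and promoters were taken from RefSeq. The 9 genes, the gene lists and the comparisons were chosen with earlier results of these data known. Genes named beside them were every other FGF gene of at least 5 TPM in at least 1 library, the 2 genes with the widest range on log2(TPM + 1) in each pathway list, and the 3 nearest in pattern to each member of at least 5 TPM with a range of at least 2. Alternatives were a pseudocount of 0.1, FPKM, median-ratio rescaling, a minimum of 5 TPM, no minimum and, chosen after the data were seen, CPM (counts scaled to the library's total) computed from the deposited counts. The scripts were tested on simulated data and used scipy 1.17.1, numpy 2.4.6, pandas 2.3.3 and matplotlib 3.10.9 under Python 3.11.15.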

Additional observations from a re-analysis of the deposited data

Results flagged for a closer look

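For 3 genes the difference between 5C and mES medium had opposite directions in Oct4GFP+ and in Oct4GFP- cells. In these 3, neither counting interval of the ratio held 1. Fgf5 also differed in sign (3.50 and -0.07), but its ratio in Oct4GFP- cells was within counting error (0.953, 0.777 to 1.17). Of the 3, only Fgf15 passed 2-fold in both fractions, while Fgf4 and Fgfr2 passed in neither. The share of all genes with such a reversal was not determined. With 1 library each, the difference of differences was not tested beyond counting error. For Fgf4 the ratio of 5C to mES was 1.91 (1.78 to 2.05) in Oct4GFP+ cells, and in Oct4GFP- cells it was 0.533 (0.428 to 0.661), so that the log2 differences of 0.93 and -0.85 lay 1.77 apart. For Fgf15 the ratios were 19.3 (5.14 to 163) and 0.314 (0.209 to 0.469), and the differences lay 4.0 apart. For Fgfr2 they were 1.54 (1.01 to 2.33) and 0.642 (0.510 to 0.805), and the differences lay 1.13 apart. Ctbp2, which shares exons with Fgfr2, held 369 TPM in 5C-Oct4GFP+ and 134 in mES-Oct4GFP+. It held 184 in 5C-Oct4GFP- and 93.9 in mES-Oct4GFP-, and the part of its reads was not tested. The fibroblast markers summed to 513 TPM in mES-Oct4GFP- and 264 TPM in 5C-Oct4GFP-, and to 15.3 and 10.9 TPM in the Oct4GFP+ libraries, and their part was not tested.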

How the results depend on the processing

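No called gene changed direction under any alternative. Of 54 counts of members past 2-fold under alternatives, 50 stayed within 1.5 times the main count. The other 4 concerned counts of at most 3. Between 5C-Oct4GFP+ (primed) and 5C-Oct4GFP+ 3 genes became 5 with a pseudocount of 0.1 (Fgf15 and Fgfr3 added) and 5 with CPM (Fgfr3 and Fgfr4 added). Between 5C-Oct4GFP+ (primed) and R1 ESCs-primed 0 became 2 with a pseudocount of 0.1 (Fgf2 and Fgfr4), and between 5C-Oct4GFP+ (naive) and mES-Oct4GFP+ 1 became 0 with FPKM. Over all genes, 1079 passed between 5C-Oct4GFP+ (primed) and R1 ESCs-primed, against 1846 with a pseudocount of 0.1, 623 with FPKM and 534 with a minimum of 5 TPM. Between 5C-Oct4GFP+ (naive) and mES-Oct4GFP+ 1269 passed, against 2232, 646 and 604. Between 5C-Oct4GFP+ and mES-Oct4GFP+ 4138 passed, against 2739 with a minimum of 5 TPM. Genes close to the threshold, Fgfr1 in mES-Oct4GFP+ and Fgf4 in 5C-Oct4GFP+ (naive), lost their call with median-ratio rescaling, FPKM and CPM. No paired analysis was possible because each group had 1 library and the labels give no replicate numbers, and no library could be left out. Counts of 0 to 10 reads limit what can be ordered, as for Fgf2 in every library and Fgf8 outside the primed and Oct4GFP- libraries. The spread between cultures is unknown.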
